A study of Mus musculus with 24 samples.

Results

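The genes described here carry out fatty acid oxidation and the making of ketone bodies in mouse tissue. They were taken from a list of 32 genes, and a gene counted as measured where a probe set of the array named it and no other gene. By that rule 30 of the 32 genes were measured, each by 1 probe set, out of 19505 named genes on the array. Etfb, the beta subunit of the electron transfer flavoprotein, and Acsl1, an acyl-CoA synthetase, were not analysed here. By role, 3 measured genes belong to the carnitine shuttle, 12 to mitochondrial beta-oxidation, 2 to electron transfer, 6 to peroxisomal oxidation, 2 to ketone body metabolism, and 2 to fatty acid uptake and binding. The other 3 are the nuclear receptor gene Ppara, the transcription factor gene Creb3l3 and Vnn1, a known target of that receptor.

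Expression was measured on 24 arrays, 1 per sample, in 6 groups of 4. All samples came from mice of the outbred strain ICR-CD1. They were taken at embryonic day 7.5 (ED7.5) and embryonic day 14.5 (ED14.5), where the tissue is named whole embryo, and from liver at postnatal day 7.5 (PD7.5). At each age 1 group descended from control grandfathers and the other from obese grandfathers, named SL, an abbreviation that the labels leave unexplained. Neither litter, grandfather nor pooling of animals is recorded per sample, so the p-values measure only the spread between these samples, which may be technical.

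Long-chain fatty acids enter mitochondria as carnitine esters. Carnitine palmitoyltransferase 1 (the liver form is Cpt1a) makes the ester, the carrier Slc25a20 moves it across the inner membrane, and Cpt2 restores the CoA ester inside. A repeating cycle of dehydrogenation, hydration, a second dehydrogenation and thiolysis then shortens the chain, and the electron transfer flavoprotein passes electrons to the respiratory chain. Peroxisomes hold a parallel set of enzymes for very long and branched chains and for dicarboxylic acids. In the liver of a suckling animal, which lives on fat-rich milk, part of the acetyl-CoA becomes ketone bodies. The receptor PPARα, encoded by Ppara, is a known activator of many of these genes and binds direct repeats of the hexamer AGGTCA spaced by a single base.

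Because the genes are described as a set with a shared known activator, their promoters were searched for that direct repeat. The motif AGGTCANAGGTCA was sought on both strands, allowing 2 mismatches over its 12 fixed bases, in windows from 250 bases before to 50 bases after each gene's start in RefSeq (build GRCm38.p6). Of the measured genes, 25 had an entry and 5 of them held a match. Counted by entry, 5 of 27 (18.5%) held a match, against 3.86% of all 32851 promoter entries. The matches in Fabp1, Echs1, Etfa and Creb3l3 lie before the start and are shown because they are the stretches in which the motif was found, with mismatches. The match in Slc25a20 lies after its start and is not shown. Each stretch is given 5′ to 3′ on the strand of its gene, with the match in capitals. The stretches are chr6:71199789-71199848 on the plus strand, chr7:140116468-140116527 on the minus strand, chr9:55512284-55512343 on the minus strand and chr10:81092764-81092823 on the minus strand, in the same order.
Fabp1: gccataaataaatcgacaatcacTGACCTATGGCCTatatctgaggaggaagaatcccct
Echs1: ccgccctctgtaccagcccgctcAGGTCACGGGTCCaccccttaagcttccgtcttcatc
Etfa: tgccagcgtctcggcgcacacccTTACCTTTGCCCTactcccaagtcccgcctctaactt
Creb3l3: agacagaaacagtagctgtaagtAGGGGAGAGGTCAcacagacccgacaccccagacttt
In Fabp1 and Etfa the repeat runs on the opposite strand, so the capitals show its reverse complement. The match in Fabp1 had 1 mismatch and the others had 2. Creb3l3 has a further entry at another start, whose best site had 4 mismatches and so is no match. The promoter windows of Cpt1a, Ehhadh and Pex11a held no match, which says only that these letters are not in those windows.

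Hadha and Hadhb, the 2 subunits of the mitochondrial trifunctional protein, share a promoter region. Their starts on chromosome 5 face away from each other with 272 bases between them, Hadha at 30154980 on the minus strand and Hadhb at 30155253 on the plus strand. The 250 bases before the Hadhb start (chr5:30155003-30155252, plus strand) are shown because they lie between the starts and so upstream of both genes. The Hadha entry, which reaches less far, includes 228 of them. They hold 58.8% G or C and 17 CG dinucleotides.
Hadhb: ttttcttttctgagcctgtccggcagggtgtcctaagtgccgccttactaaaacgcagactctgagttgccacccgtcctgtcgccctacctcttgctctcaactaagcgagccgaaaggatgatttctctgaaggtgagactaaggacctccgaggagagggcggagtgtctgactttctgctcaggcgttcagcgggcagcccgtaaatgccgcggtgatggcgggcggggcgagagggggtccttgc
The expression of this pair is compared further on.

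All values are on a log2 scale, and a difference of 1 is a doubling. A probe set was taken as above background on an array where it exceeded the value below which 75% of that array's 5222 intron control probes lay, which was 5.05 to 6.53. Between 48.3% and 64.1% of named genes were above background per array. ED7.5 control replicate 2 had the highest background, 6.53, and 49.0% of named genes above it. On the other ED7.5 control arrays that share was 57.0% to 64.1%. ED14.5 control replicate 1 had a background of 6.51 and the lowest share, 48.3%, against 53.0% to 53.5% on the other ED14.5 control arrays. Of the 30 genes, 24 were above background on every control array at ED7.5, 29 at ED14.5 and 30 in liver.

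The labelled tissues were checked against marker genes. At ED14.5 albumin (Alb) averaged 13.51 in the control group against 13.80 in the control liver, so hepatocyte transcripts were abundant. In that group 5 of 8 neuron markers, 8 of 9 muscle markers and 4 of 5 cartilage and bone markers were not above background on any array, and no marker of these lists was above it on every array. In the SL group the numbers were 5, 7 and 4, and 1 neuron marker was above background on every array. Myog (muscle), Snap25 (neuron) and Col2a1 (cartilage) were among those not above background on any array. At ED7.5, all 14 decidua markers were above background on every array, and Prl8a2, a decidual prolactin-family gene, averaged 13.32 in the control group. Of 10 markers of epiblast and early embryo, 1 was above background on every ED7.5 array. The samples are therefore called here by age. In comparisons of ages, the age, the tissue named and the cell makeup cannot be told apart, and fewer cells of a type and less RNA per cell cannot be told apart in bulk samples.

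**Figure D1:**
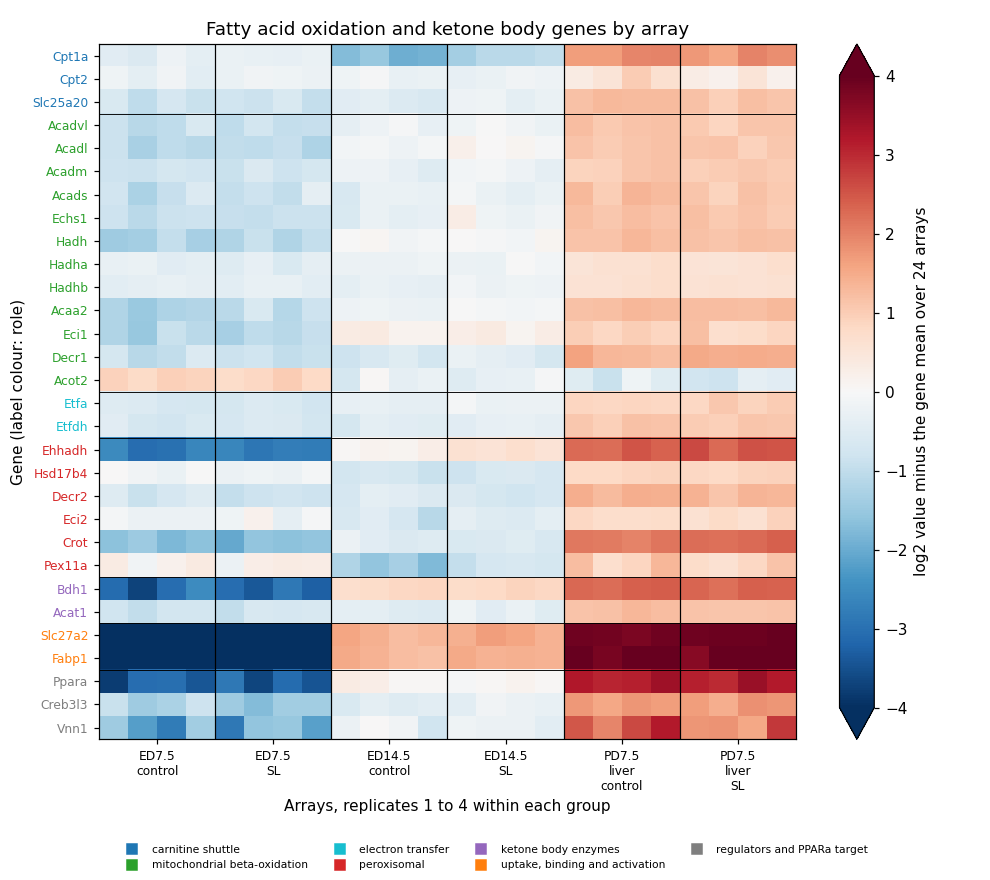
Log2 value of each of the 30 measured genes (rows, label colour by role) on each of the 24 arrays (columns, by group), less that gene's mean over all 24 arrays; the colour scale is cut at −4 and 4. Slc27a2 and Fabp1 go from the low end at ED7.5 to the high end in liver, whereas Hadha, whose values lie between 11.20 and 12.52, changes little, and Acot2 is highest at ED7.5.

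From ED7.5 to ED14.5 in the control line, the genes of uptake and binding, the ketone body dehydrogenase gene Bdh1 and the receptor gene Ppara rose most, while the entry enzyme of mitochondrial oxidation fell. With limma and Benjamini-Hochberg adjustment over all 19505 named genes (threshold 0.05), 18 of the 30 genes rose, against 25.6% of all named genes. A further 5 fell, against 26.3%. The median difference was 0.49, against 0.03 over all named genes. Of the 17 mitochondrial genes 9 rose and 2 fell, of the 6 peroxisomal genes 2 rose and 3 fell, and both ketone genes rose.

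Fabp1 encodes the fatty acid binding protein of liver. Its values were 2.57, 2.92, 2.68 and 3.13 at ED7.5, none above background, and 9.73, 9.62, 9.44 and 9.38 at ED14.5. The groups are far apart and Fabp1 was at least 14.8-fold higher at ED14.5, a bound set by the background of the ED7.5 arrays (adjusted p = 3.57e-10). The very long chain acyl-CoA synthetase and transporter gene Slc27a2 went from 3.77, 3.69, 3.26 and 3.43, again below background, to 10, 9.83, 9.65 and 9.74. That is at least 17.8-fold higher (adjusted p = 3.94e-10). Ppara was also below background on all 4 ED7.5 control arrays, at 4.42 to 5.19, and reached 8.25 to 8.52 at ED14.5, at least 6.63-fold higher.

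Bdh1 encodes the dehydrogenase that interconverts the main ketone bodies acetoacetate and 3-hydroxybutyrate. It measured 7.12, 6.48, 7.14 and 7.67 at ED7.5 and 10.85, 10.94, 11.02 and 11.04 at ED14.5, with no overlap. The rise was 3.86 ± 0.213 (SE), or 14.5-fold (adjusted p = 1.26e-07). Acat1, the mitochondrial acetoacetyl-CoA thiolase, rose by only 0.36 (adjusted p = 0.014; 0.0525 with a replicate block). Ehhadh, the peroxisomal bifunctional enzyme, rose by 2.94, and Crot, which makes medium-chain carnitine esters in peroxisomes, rose by 1.18. At ED7.5 Ehhadh was above background on only 2 of the 4 control arrays, and Bdh1 on 3. The sizes of these 2 rises therefore rest in part on values near background.

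The genes that fell were Pex11a, Cpt1a, Acot2, Hsd17b4 and Eci2. Pex11a, which takes part in the division of peroxisomes, measured 7.57, 7.08, 7.42 and 7.61 at ED7.5 and 6.02, 5.67, 5.90 and 5.46 at ED14.5, where none of the 4 arrays was above background. It was at least 2.44-fold lower at ED14.5 (adjusted p = 9.61e-06). Cpt1a measured 9.36, 9.24, 9.60 and 9.41 and then 8.08, 8.31, 7.86 and 7.91, a fall by 1.36 ± 0.132 (SE) (adjusted p = 9.15e-06). Acot2, a mitochondrial thioesterase that splits acyl-CoA, measured 10.19, 10.04, 10.21 and 10.15 and then 8.58, 9.32, 8.91 and 9.01, a fall by 1.19. In all 3 genes the groups did not overlap. Hsd17b4, the peroxisomal D-bifunctional enzyme, fell by 0.64 and Eci2, a peroxisomal enoyl-CoA isomerase, fell by 0.52.

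Within the mitochondrial cycle the rises were smaller. The isomerase gene Eci1 rose by 1.40, the short-chain hydroxyacyl-CoA dehydrogenase gene Hadh by 1.22, the thiolase gene Acaa2 by 1.05 and the long-chain dehydrogenase gene Acadl by 0.95. Cpt2, Slc25a20, Hadha, Hadhb, Decr1 and Etfdh did not pass the test, and nor did the peroxisomal Decr2. Their differences lay between 0.03 and 0.29. The calls of Acads and Etfa were lost without single arrays: Acads without ED7.5 control replicate 2 or 3 or ED14.5 control replicate 2, 3 or 4, and Etfa without ED7.5 control replicate 3 or 4 or any 1 of the ED14.5 control replicates, with adjusted p of 0.0533 to 0.077. Over the same step the mean of 17 hepatocyte markers went from 5.22 to 12.36 in the control line, and that of 14 decidua markers from 11.44 to 5.99. Their part in the differences was not tested.

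**Figure D2:**
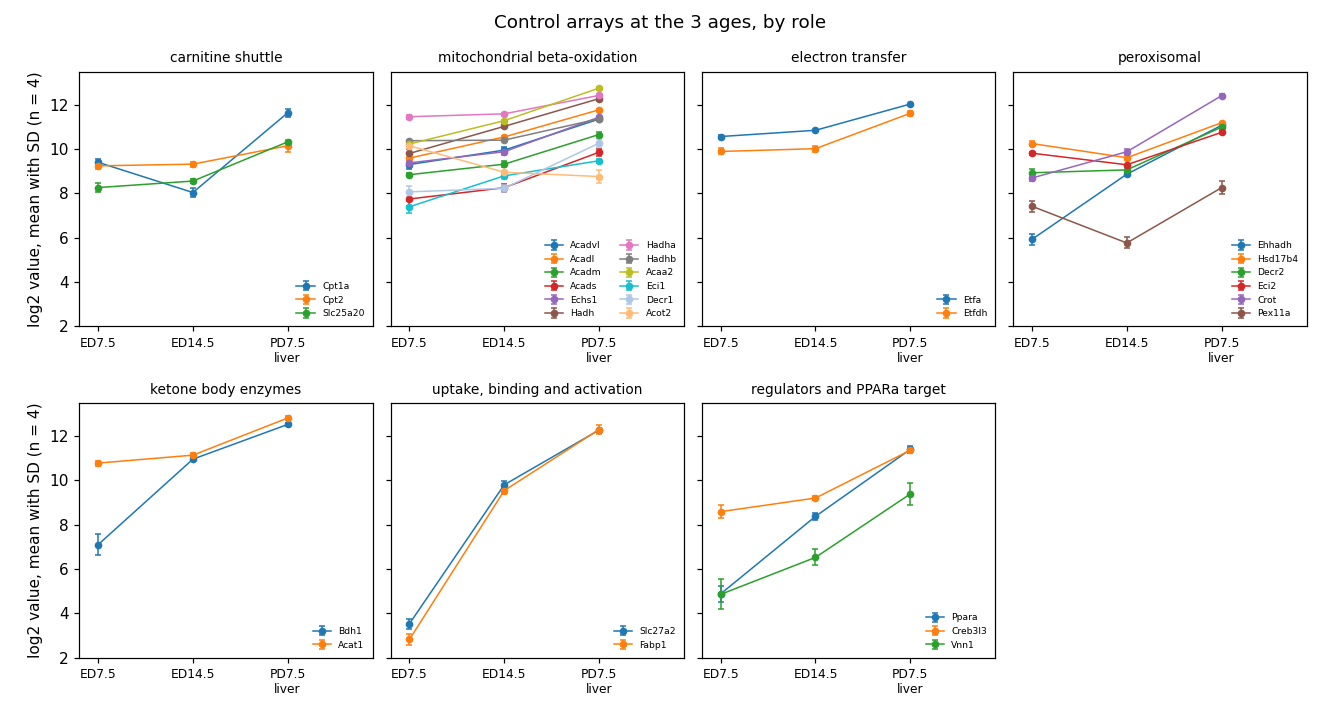
Mean log2 value of the 4 control arrays at each age, with SD, for the genes of each role, with lines joining the means of a gene. Between ED14.5 and PD7.5 liver the means of all genes but Acot2 go up, and Cpt1a, Pex11a, Hsd17b4 and Eci2 are lower at ED14.5 than at either other age.

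Between ED14.5 and PD7.5 liver nearly the whole set rose. In the control line 29 of the 30 genes rose and none fell, against 20.5% and 24.6% of all named genes. The median difference was 1.59, against −0.02 over all named genes. Acot2 was the exception, with a difference of −0.19 (95% confidence interval −0.62 to 0.24, adjusted p = 0.459). In the SL line, which shares no array with the control line, the same 29 genes rose, against 21.4% of all named genes, and none fell, against 24.4%. The median difference was 1.39. Acot2 differed there by −0.31 (adjusted p = 0.133). The difference was larger in the control line for 27 of 30 genes; the interaction term given further on tests that contrast gene by gene.

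Cpt1a changed most in the control line. It went from 8.08, 8.31, 7.86 and 7.91 at ED14.5 to 11.48, 11.49, 11.76 and 11.80 in liver, a rise of 3.59 ± 0.141 (SE) or 12.1-fold (adjusted p = 5.91e-08). Ppara went from 8.52, 8.48, 8.25 and 8.27 to 11.43, 11.25, 11.33 and 11.59, a rise of 3.02 or 8.11-fold. Vnn1, which encodes a pantetheinase, went from 6.58, 6.83, 6.69 and 6.02 to 9.30, 8.78, 9.47 and 10.01, a rise of 2.86 ± 0.263 (SE). No liver value of the 3 genes came near an ED14.5 value. In the SL line the largest rises were those of Ppara, from 8.15, 8.26, 8.35 and 8.26 to 11.33, 11.18, 11.65 and 11.38, of Cpt1a, from 8.44, 8.73, 8.72 and 8.84 to 11.54, 11.37, 11.80 and 11.69, and of Crot, from 9.73, 9.75, 9.85 and 9.68 to 12.56, 12.54, 12.60 and 12.70. These rises were 3.13, 2.91 and 2.85.

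By role, the peroxisomal genes had a larger median rise than the mitochondrial genes in both lines. The median was 2.07 over 6 peroxisomal and 1.34 over 17 mitochondrial genes in the control line, and 1.73 and 1.18 in the SL line. The 2 ketone genes had a median of 1.62 and 1.49, the 2 uptake and binding genes 2.61 and 2.50, and the 3 regulators and target 2.86 and 2.24. These are medians of unequal and small sets, and the difference between roles was not tested. Within the mitochondrial set the carnitine shuttle had a median of 1.76 in the control line, the beta-oxidation enzymes 1.29 and the electron transfer genes 1.39.

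Counterparts in the 2 organelles were compared by their differences in the control line, not by their levels. For hydration and dehydrogenation, Hadha rose by 0.83 in mitochondria and Ehhadh by 2.20 in peroxisomes. For isomerisation of double bonds, Eci1 rose by 0.68 and Eci2 by 1.46. For the removal of double bonds, the reductase genes Decr1 and Decr2 rose alike in size, by 2.03 and 1.93. For carnitine ester formation the order was the other way, with 3.59 for Cpt1a and 2.53 for Crot. The peroxisomal gene had the larger rise in 2 of these 4 pairs, and the difference within a pair was not tested.

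The acyl-CoA dehydrogenases, each of which starts the cycle on a range of chain lengths, rose together. The difference was 1.60 for Acads (short chains), 1.34 for Acadm (medium), 1.22 for Acadl (long) and 1.40 for Acadvl (very long). Hadha and Hadhb, whose shared upstream window is printed above, rose by 0.83 and 0.96. At the earlier step, from ED7.5 to ED14.5, they differed by 0.13 and 0.03 and neither passed the test.

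**Figure D3:**
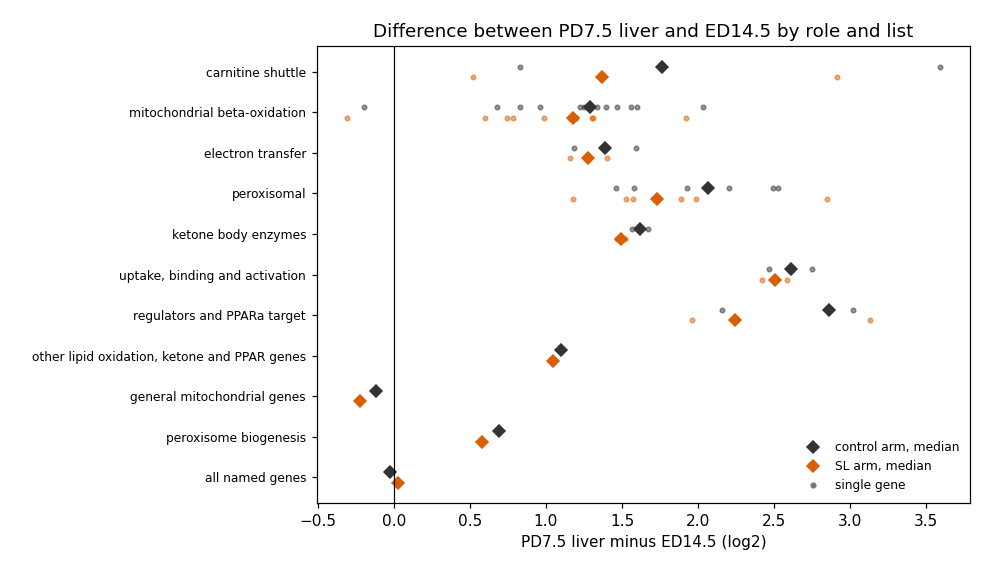
Difference in log2 value between PD7.5 liver and ED14.5 in the control line (dark) and the SL line (orange), with small points for single genes of a role and diamonds for the median of a role or list. The medians of all 7 roles lie above 1, that of the general mitochondrial genes lies at −0.11 and −0.22, and Acot2 is the single member below 0.

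Other genes put these changes beside the wider pathway. Of 74 further measured genes of lipid oxidation, ketone use and PPAR signalling, 50 rose and 13 fell from ED14.5 to control liver, with a median of 1.10. Over all named genes 20.5% rose and 24.6% fell. Acaa1a and Acaa1b, the peroxisomal thiolases, rose by 2.56 and 3.36. Oxct1, the enzyme with which other organs but not hepatocytes use ketone bodies, fell by 1.07 from ED7.5 to ED14.5 (adjusted p = 2.73e-05) and by 1.43 from ED14.5 to liver (adjusted p = 0.000116). Of 12 genes of peroxisome biogenesis 9 rose and 1 fell, with a median of 0.69. Of 18 general mitochondrial genes 1 rose and 7 fell, with a median of −0.11, so that list did not rise with the oxidation genes. Over the same step the 17 hepatocyte markers had a median difference of 0.88 and 16 rose, and the 11 erythroid markers had a median of −3.01 and all fell. Their part in the rise of the oxidation genes was not tested.

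The study's main question was whether descent from an obese grandfather goes with altered expression. At ED14.5 most of the oxidation genes had slightly higher values in the SL group, but none passed the test over all genes. With limma 0 of 30 were called, against 0.0513% of all named genes. The difference lay above 0 for 26 of 30 genes, against 50% of all named genes, with a median of 0.12 and a range from −0.17 to 0.73. The top of that range is Pex11a, whose control values were not above background. At an unadjusted p under 0.05, 5 were higher (Pex11a, Ehhadh, Cpt1a, Slc25a20 and Echs1) and none lower, against 5.59% of all named genes higher and 5.81% lower. The Echs1 groups overlap, with a lowest SL value of 10.01 and a highest control value of 10.02. Its SL replicate 1 measured 10.58, and the next SL value was 10.15. In 8 genes every SL value lay above every control value, against 3.71% of all named genes, and in none did every value lie below, against 4.27%.

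Cpt1a measured 8.08, 8.31, 7.86 and 7.91 in the control group at ED14.5 and 8.44, 8.73, 8.72 and 8.84 in the SL group. The groups do not overlap, and the lowest SL value lies just above the highest control value. The difference was 0.64 ± 0.133 (SE), or 1.56-fold (adjusted p = 0.124).

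Ehhadh measured 8.78, 8.86, 8.84 and 8.99 in the control group and 9.34, 9.27, 9.40 and 9.28 in the SL group, so the SL samples lie together above the controls. The ratio was 1.37-fold, with an SE of 0.0892 on the log2 scale (adjusted p = 0.106). Pex11a measured 6.02, 5.67, 5.90 and 5.46, not above background on any control array, and 6.27, 6.56, 6.60 and 6.54, above background on all 4 SL arrays. It was at least 1.29-fold higher in the SL group. The fitted difference was 0.73 ± 0.141 (SE) (adjusted p = 0.1), a size that rests on control values below background. These 3 genes passed the threshold in some other analyses of the same arrays. With an intensity trend and robust prior the adjusted p was 0.041 for Pex11a, 0.0105 for Ehhadh and 0.00984 for Cpt1a. In the fit of all 24 arrays it was 0.0178 for Cpt1a, and without the dimmest 33% of genes it was 0.0459 for Pex11a and 0.0405 for Ehhadh.

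Slc25a20, the carnitine carrier, measured 8.62, 8.66, 8.53 and 8.42 in the control group and 8.85, 8.88, 8.69 and 8.80 in the SL group, a difference of 0.25 (adjusted p = 0.376). The lowest SL value is close to the highest control value. Acadl measured 10.56, 10.60, 10.45 and 10.58 against 10.86, 10.69, 10.78 and 10.62, a difference of 0.19 (adjusted p = 0.473). Acaa2, the thiolase that ends a mitochondrial cycle, measured 11.31, 11.32, 11.27 and 11.22 against 11.49, 11.41, 11.40 and 11.42, a difference of 0.15 (adjusted p = 0.517). In both genes the groups were apart by less than the range within a group. Hadhb and Etfa also had groups that did not overlap, with differences of 0.15 and 0.13, while Hadha, the partner of Hadhb, differed by 0.06 with overlapping groups.

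By role at ED14.5, 16 of 17 mitochondrial genes lay above 0, against 50% of all named genes, with a median of 0.14. Of the 6 peroxisomal genes 4 lay above 0, with a median of 0.16, and Decr2 (−0.17) and Crot (−0.13) lay below. Both ketone genes were near 0, at 0.04 for Bdh1 and 0.11 for Acat1, and Ppara differed by −0.12. The 95% confidence interval of the difference lay within ±0.5 for 24 of the 30 genes. The mean over all 30 genes was 9.36 to 9.53 on the control arrays and 9.56 to 9.59 on the SL arrays, a description only.

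Values of other cell types at ED14.5 stand beside these. The summed level of the 17 hepatocyte markers was 16.60 to 16.68 (log2) in the control group and 16.60 to 16.70 in the SL group, and their median difference was 0.02. The 11 erythroid markers had a median difference of −0.13, with 8 of 11 below 0 and 0 called by limma, and a mean level of 11.64 to 11.71 in controls against 11.54 to 11.63 in SL samples. The erythroid means do not overlap, and their part in the differences of the oxidation genes was not tested.

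**Figure D4:**
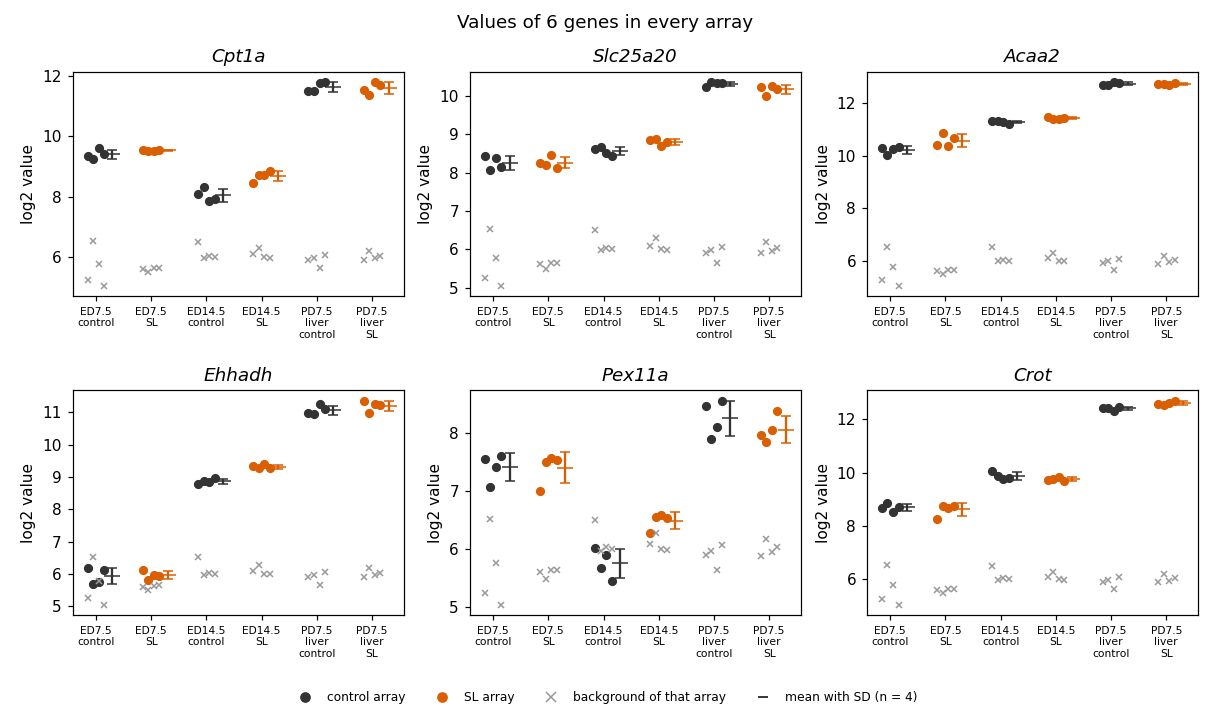
Log2 values by array for Cpt1a, Slc25a20, Acaa2, Ehhadh, Pex11a and Crot in control (dark) and SL (orange) samples at each age, with the mean and SD of 4 arrays beside them and a grey cross at the background of each array. At ED14.5 the control and SL points are apart for Cpt1a, Ehhadh and Pex11a, with the Pex11a controls under their background, and in liver the points overlap for those 3 genes.

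At ED7.5 the 2 groups were close. The limma fit called 0 of 30 genes, against 0.00513% of all named genes. The difference lay above 0 for 13 of 30 genes, against 50.5%, with a median of −0.00, and without ED7.5 control replicate 4 it lay above 0 for 21. The groups did not overlap for 2 genes, Acaa2 and Slc27a2, against 3.05% of all named genes. At an unadjusted p under 0.05, 1 gene was higher (Acaa2) and 2 were lower (Slc27a2 and Creb3l3), against 2.8% and 2.68% of all named genes.

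Acaa2 measured 10.31, 10.02, 10.25 and 10.32 in the control group and 10.42, 10.88, 10.36 and 10.67 in the SL group, a difference of 0.36 (adjusted p = 0.849). The groups do not overlap, though the 2 nearest values are close. Slc27a2 measured 3.77, 3.69, 3.26 and 3.43 against 2.71, 2.26, 3.04 and 2.35, and all 8 values lie below background. No fold is given for it, since neither group was measured above background. Creb3l3, an endoplasmic reticulum transcription factor of liver, differed by −0.38 (adjusted p = 0.868). The interval of the difference lay within ±0.5 for 23 of the 30 genes.

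In PD7.5 liver, where the set is most highly expressed, limma called none of the 30 genes and 0% of all named genes. None had an unadjusted p under 0.05, against 7.91% of all named genes. The difference lay above 0 for 7 of 30 genes, against 50.7%, with a median of −0.04 and a range from −0.59 to 0.19. That count was 13 without liver control replicate 3, 13 without liver control replicate 4, 11 without liver SL replicate 1 and 11 without liver SL replicate 2. The median difference was −0.04 over the mitochondrial genes, −0.00 over the peroxisomal genes and −0.05 over the ketone genes. In the same comparison 3 of 18 general mitochondrial genes lay above 0, with a median of −0.08. Of the cell type markers, 0 of 11 erythroid (median −0.32), 1 of 11 Kupffer cell (−0.22) and 9 of 9 neutrophil markers (0.38) lay above 0, and limma called none of them. The mean erythroid level was 7.91 to 8.50 on the control and 6.82 to 8.24 on the SL arrays, the Kupffer cell level 9.07 to 9.17 and 8.81 to 9.07, and the neutrophil level 8.68 to 9.60 and 9.51 to 9.64. Their part in the differences of the oxidation genes was not tested.

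The groups did not overlap for Crot and Acat1, against 4.43% of all named genes. Crot measured 12.43, 12.41, 12.31 and 12.46 in control livers and 12.56, 12.54, 12.60 and 12.70 in SL livers, a difference of 0.19 (adjusted p = 0.707). Acat1 measured 12.75, 12.76, 12.91 and 12.84 against 12.72, 12.70, 12.71 and 12.75, a difference of −0.09 (adjusted p = 0.86). The gap between the groups is about the size of a group's SD for Crot, and the nearest Acat1 values all but touch. Cpt1a, whose groups were apart at ED14.5, measured 11.48 to 11.80 in control livers and 11.37 to 11.80 in SL livers, a difference of −0.04 with a 95% confidence interval from −0.36 to 0.29. The largest negative difference was that of Vnn1, −0.59 ± 0.32 (SE) (adjusted p = 0.69), and the interval lay within ±0.5 for 27 of the 30 genes.

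**Figure D5:**
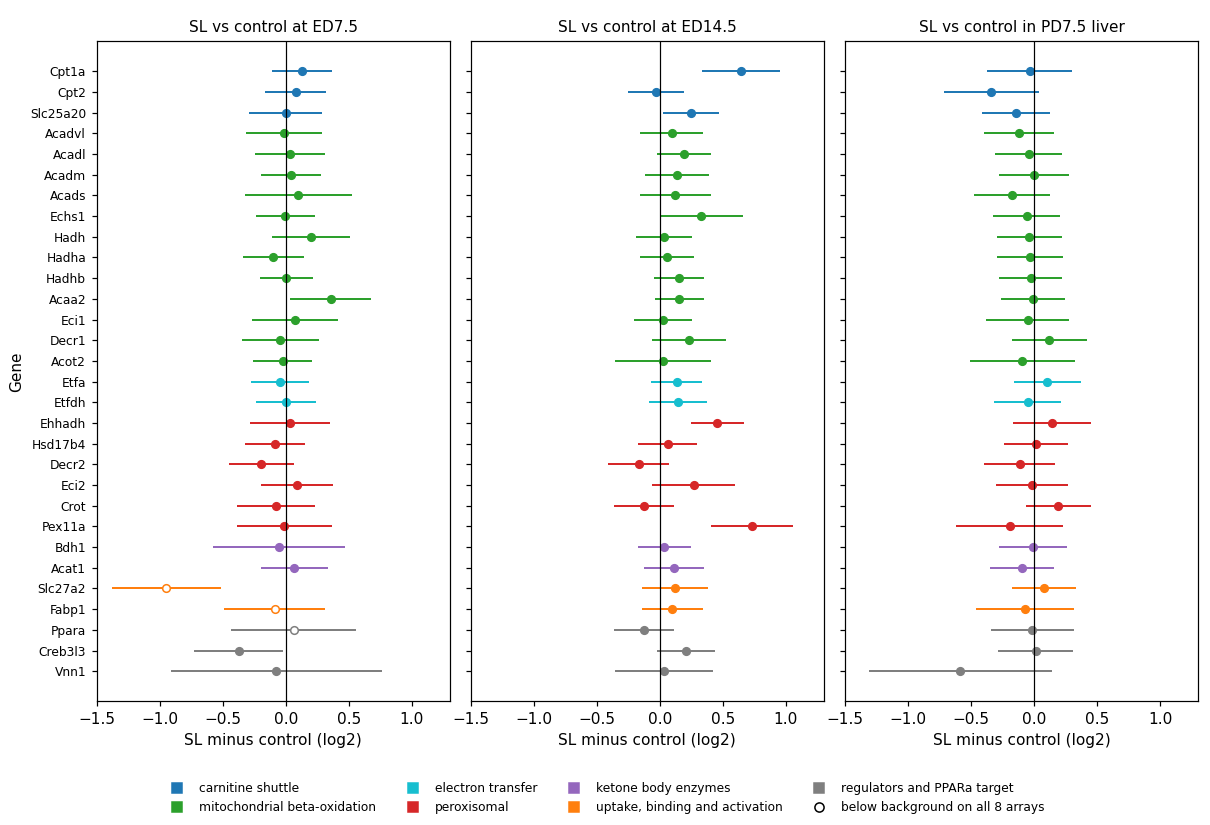
Difference in log2 value, SL minus control, with its 95% confidence interval for each gene at ED7.5, ED14.5 and in PD7.5 liver, ordered and coloured by role; open points mark genes below background on all 8 arrays. At ED14.5 26 of 30 points lie above 0, with Pex11a and Cpt1a farthest out, and in liver 23 lie below 0.

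Whether the SL difference itself varied with age was tested with an interaction term in 1 fit of all 24 arrays. These tests reuse the arrays of the comparisons above. From ED7.5 to ED14.5, 1 of 30 genes was called, Slc27a2, against 0.0769% of all named genes, with a fitted term of 1.07 (adjusted p = 0.035). The ED7.5 values behind it are all below background, so the term is no measured change, and at ED14.5 Slc27a2 measured 10, 9.83, 9.65 and 9.74 in controls and 9.85, 10.08, 9.98 and 9.79 in SL samples, which overlap. Its call was lost without ED7.5 control replicate 1 or 2, ED7.5 SL replicate 2 or 4, ED14.5 control replicate 2, 3 or 4, ED14.5 SL replicate 2 or 3, or liver control replicate 4, and over all alternatives its adjusted p ranged from 0.00593 to 0.204. The difference between ages was 0.52 for Cpt1a (adjusted p = 0.429) and 0.42 for Ehhadh (adjusted p = 0.553). Ehhadh was above background on only 2 of the 4 control arrays at ED7.5, which limits that size. Pex11a did not pass either (adjusted p = 0.397), and no size is given for it, since its ED14.5 controls were not above background.

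From ED14.5 to liver limma called 0 of 30 genes, against 0.0256% of all named genes. The change in the SL difference was −0.68 for Cpt1a (95% confidence interval −1.04 to −0.32, adjusted p = 0.136), and Pex11a, again without a size, had an adjusted p of 0.142. At an unadjusted p under 0.05, 4 genes were lower (Cpt1a, Pex11a, Slc25a20 and Echs1), against 5.23% of all named genes, and 1 was higher, Crot at 0.32 (adjusted p = 0.468), against 5.37%. The change lay above 0 for 3 of 30 genes, against 49.9% of all named genes, with a median of −0.17. It lay above 0 for none of the 17 mitochondrial genes, with a median of −0.18. It shares the ED14.5 arrays with the SL comparison at that age, so the same values enter both.

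Among other genes of lipid oxidation, 1 of 74 was called in the SL comparison at ED14.5, against 0.0513% of all named genes. It was Angptl4, which restrains lipoprotein lipase and is a known PPAR target, which rose from a mean of 8.60 to 9.50, by 0.90 (adjusted p = 0.0456). Its call was lost with a replicate block (adjusted p = 0.202) and without any 1 of the 8 arrays (0.0689 to 0.139), with differences of 0.86 to 0.98. The call was kept in 6 of 15 alternatives, with a lowest limma adjusted p of 0.000213. Pdk4, the kinase that switches off pyruvate dehydrogenase and another known PPAR target, went from 6.21 to 7.42, a difference of 1.20 (adjusted p = 0.0611). Its ED14.5 control values were above background on only 3 of 4 arrays, so the sizes given for Pdk4 rest in part on values near background. It passed with an intensity trend and robust prior (adjusted p = 0.00139), with all 24 arrays (0.00196) and without the dimmest 33% of genes (0.0254). The difference between its SL effects at ED14.5 and ED7.5 was 1.40 (adjusted p = 0.0107), a call lost with only the 16 arrays of the 2 ages (0.0769). Of the 74 genes 48 lay above 0, with a median of 0.08, and of the 18 general mitochondrial genes 11 did, with a median of 0.07. The share above 0 over all named genes was 50%. In liver Acaa1a went from 10.75 to 9.95, a difference of −0.80 with an unadjusted p of 0.000982 and an adjusted p of 0.509.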

How the data were processed

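RNA from 24 samples was hybridised to 1 array each. The deposited log2 values per probe set come from RMA in the oligo package, per the submitters' processing notes; their version is not given, nor whether 1 run held all arrays. No further normalization was applied. Gene names came from the platform annotation, which names 1 gene for 19572 probe sets (19505 genes; for 55 genes with several, the main analysis used 1) and none for 2634 probe sets that are not controls. Groups were compared with limma 3.58.1 in R 4.3.3, two-sided, with Benjamini-Hochberg adjustment over all named genes, fitted on the 8 arrays compared; interactions used all 24. "At least" folds set the bright group's mean against the background of the other group's arrays. Array number and background limit the precision; no depth applies.

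The members and lists were chosen with earlier results of these data known. In each SL comparison arrays are given one by one for called genes and otherwise for up to 6 genes whose groups do not overlap, and in age comparisons for the 3 largest changes per direction; mitochondrial and peroxisomal counterparts and some pathway genes were named whatever their values. The labels do not say whether same-numbered samples belong together, and the main fits did not pair them. The correlations of same-numbered deviations ranged from −0.165 to 0.116, which cannot exclude a pairing. No pair of arrays was a duplicate. The fits were tested on simulated data to check the code. Their power for differences as small as the SL ones is not given here. Alternatives were an intensity trend with robust prior, array weights, all 24 arrays in 1 fit, a replicate block, a filter on dim genes, quantile normalization, the mean of several probe sets, and leaving out each replicate. Promoter sequences are from RefSeq (GRCm38.p6).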

Additional observations from a re-analysis of the deposited data

Results flagged for a closer look

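Within the 30 genes and 6 groups, 180 sets of 4 values were searched for a sample far from its group, by the ratio of its gap to the group's range (above Dixon's 95% critical value). There were 9, and chance alone gives about 1 in 20. At ED7.5, SL replicate 1 was low for Crot (8.27), Pex11a (7.01) and Acat1 (10.60), SL replicate 2 was low for Creb3l3 (7.97), control replicate 3 was high for Hadh (10.11) and control replicate 1 was high for Eci2 (9.92). At ED14.5, control replicate 1 was low for Acads (7.98) and SL replicate 1 was low for Pex11a (6.27), where the nearest other SL sample was at 6.54. In liver, control replicate 2 was low for Decr2 (10.85).

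The interaction term for the SL difference of Slc27a2, a fatty acid transporter and acyl-CoA synthetase, at ED14.5 against ED7.5 was 1.07 (limma adjusted p = 0.035). Its 8 values at ED7.5 were all below background, so this is no measured change. The call was lost with only the 16 arrays of the 2 ages (adjusted p = 0.0999), with a replicate block (0.204) and without any 1 of 10 arrays.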

How the results depend on the processing

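No called difference changed sign. Without 1 replicate, medians near 0 did: at ED7.5 that of all members ran from −0.05 to 0.03, mitochondrial −0.03 to 0.06 and peroxisomal −0.09 to 0.01, and in liver peroxisomal −0.04 to 0.02. Of the members, 1 was called at ED7.5 in the fit of all 24 arrays. It was Slc27a2, whose values there all lie below background, so this is no measured difference. At ED14.5, 3 were called with an intensity trend and robust prior, 1 with all 24 arrays and 2 without the dimmest 33% of genes. For the change of the SL difference from ED7.5 to ED14.5, 0 were called with only 16 arrays and 0 with a replicate block. Named genes called: at ED7.5 (1), 3 with the trend and 12 with all 24 arrays; at ED14.5 (10), 283 with the trend, 79 with all 24 arrays and 99 without dim genes; in liver (0), 5 with all 24 arrays; for the change from ED7.5 to ED14.5 (15), 35 with the trend, 46 with array weights and 28 without dim genes; for the change from ED14.5 to liver (5), 28 with the trend, 1 with 16 arrays and 18 without dim genes. With the replicate block, ED14.5 gave 0 named genes and the 2 changes gave 5 and 3; from ED7.5 to ED14.5 Etfa (adjusted p = 0.0848) and Acat1 (0.0525) lost their call. The cause was not tested. Leaving out 1 replicate gave 0 to 2 named genes at ED7.5, 1 to 5 at ED14.5, 0 in liver, 8 to 19 and 1 to 16 for the 2 changes, and 0 to 1 member for the first. Members above 0 ranged from 9 to 21 at ED7.5, 24 to 27 at ED14.5 and 5 to 13 in liver. From ED7.5 to ED14.5, 21 to 24 members were called, with a median difference of 0.41 to 0.51. In each liver comparison 29 were called in every leave-out. Without the dimmest genes fewer genes are tested. Signal over background limits Slc27a2, Fabp1, Ppara, Vnn1, Ehhadh and Bdh1 at ED7.5, and Pex11a and Pdk4 at ED14.5.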
